A study of Mus musculus with 6 samples.

Results

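Otx2, Sall2, Pou3f1, Grhl2, Zic2, Sox4, Fgf5 and Cldn6 are genes associated with the primed epiblast, and their RNA was followed in mouse embryonic stem (ES) cells over 6 h of treatment with 5-Ph-IAA, an auxin analog used to deplete the RNA helicase DDX6. The 8 genes were taken from a list of names, drawn up with earlier results of these data known, and were matched by symbol among 55487 genes in a table of raw counts. All 8 were found, and all 8 passed the filter on low counts that left 15748 genes for testing.

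The ES cells were of the D6AdP line. Every library carried the same genotype: DDX6-AID-mCherry on both alleles, where AID is a degron that auxin switches on, DCP1a-EGFP on 1 allele, and an OsTIR1-FLAG transgene. OsTIR1 is a plant F-box protein that sends degron-tagged proteins for destruction once an auxin analog is added. The groups were cells taken before 5-Ph-IAA was added (0 h), cells given it at 500 nM for 3 h, and cells given the same dose for 6 h, with 2 libraries each. In all groups the cells grew on mitomycin-C-treated fibroblast feeders with leukemia inhibitory factor, PD0325901, which blocks MEK, and CHIR99021, which blocks GSK3. The RNA of each well could therefore include RNA of feeder cells. A single line was used, and cells lacking the degron or kept for the same hours without the analog were not analysed here, so depletion of DDX6 cannot be told apart from exposure to the analog or from time in the well. Because the degron acts on protein, RNA counts do not check the depletion. In bulk RNA, a change in the number of cells of a type and a change in RNA per cell cannot be told apart.

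ES cells kept with both inhibitors are held close to the naive state of the preimplantation epiblast. On leaving it, cells pass through a formative state to the primed state of the postimplantation epiblast, with loss of naive factors and gain of genes such as Otx2, Fgf5 and Pou3f1. DDX6 is an RNA helicase of processing bodies that acts in translational repression and mRNA decay, and it takes part in repression by microRNAs.

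The libraries held 16357142 to 21846959 counts, so that 3 counts stood for 0.137 to 0.183 CPM, the count scaled to the size of the library. The 10 ES cell markers summed to 4371 to 4828 CPM over the 6 libraries. Among them Pou5f1 had 609 to 658 CPM and Utf1 66.6 to 71.2 CPM. The 30 feeder fibroblast markers summed to 30453 and 27817 CPM at 0 h, 26879 and 26489 CPM at 3 h, and 30006 and 26942 CPM at 6 h. The feeder sum was thus far above the ES cell sum in every library. Sums over different genes do not give the share of each cell type. How much RNA of the 8 genes came from feeders was not tested. The 12 primitive endoderm markers summed to 1809 to 2107 CPM, of which Sparc, also on the feeder list, gave 1415 to 1638 CPM and Col4a1 309 to 386 CPM, while Gata6 had 1.07 to 1.57 CPM. The 10 neuroectoderm markers summed to 148 to 155 CPM and the 8 trophectoderm markers to 80.3 to 103 CPM over the 6 libraries. Markers within these lists ranged widely. Sox17 had 2 to 4 counts per library, Neurog2 0 to 1 and Elf5 0 to 1, whereas Olig2 had 40.5 to 45.9 CPM, Eomes 23.6 to 32.0 CPM and Tfap2c 38.8 to 54.6 CPM. These single markers were chosen after their values were seen. Whether the 2 libraries of a time were separate cultures is not stated, so the p-values rest on a spread between libraries that could be technical alone.

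The changes among the 8 genes were rises of transcription factors by 6 h. Otx2, Sall2 and Pou3f1 rose at 6 h against 0 h, and the same genes with Grhl2 rose at 6 h against 3 h. The call was a Benjamini-Hochberg adjusted p under 0.05 in edgeR's quasi-likelihood test over all 15748 genes. Zic2, Sox4, Fgf5 and Cldn6 did not pass it in any comparison. At 6 h against 0 h, 3 of the 8 were called, all higher, where 22.3% of all genes tested were called and 10.0% were called higher. At 6 h against 3 h, 4 of the 8 were called, all higher, where 21.7% of all genes were called and 9.89% were called higher. Both 6 h libraries lay above both 0 h libraries for 4 of the 8, beside 29.6% of all genes (59.5% did not overlap in either direction). They lay above both 3 h libraries for 5 of the 8, Sox4 included, beside 30.8% of all genes (60.8% in either direction). The median log2 fold change of the 8 was 0.26 at 6 h against 0 h and 0.41 at 6 h against 3 h, beside 0.0019 and 0.0052 over all genes tested. No gene of the 8 was called lower, and none fell at an unadjusted p under 0.05. DESeq2, which gave no adjusted p for Fgf5, and limma voom called none of them lower either. At 3 h against 0 h none of the 8 was called and none had an unadjusted p under 0.05, where edgeR called 0.14% of all genes, 0.0508% higher and 0.0889% lower. DESeq2 and limma voom also called none of them at 3 h, where DESeq2 gave no adjusted p for Fgf5, Pou3f1, Grhl2 and Cldn6. The comparisons at 6 h share libraries with each other and with the comparison at 3 h.

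**Figure D1:**
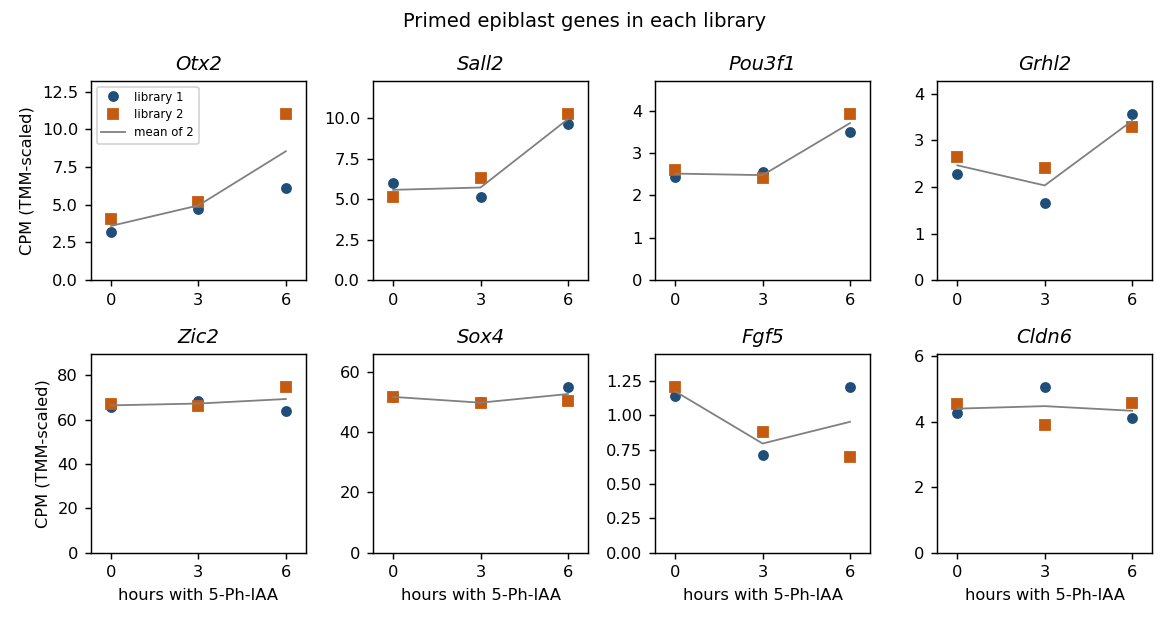
TMM-scaled CPM of the 8 genes in each of the 6 libraries at 0, 3 and 6 h, with a point per library and a line through the group means. The 6 h libraries lie above the other 4 for Otx2, Sall2, Pou3f1 and Grhl2, and among them for Cldn6.

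**Figure D2:**
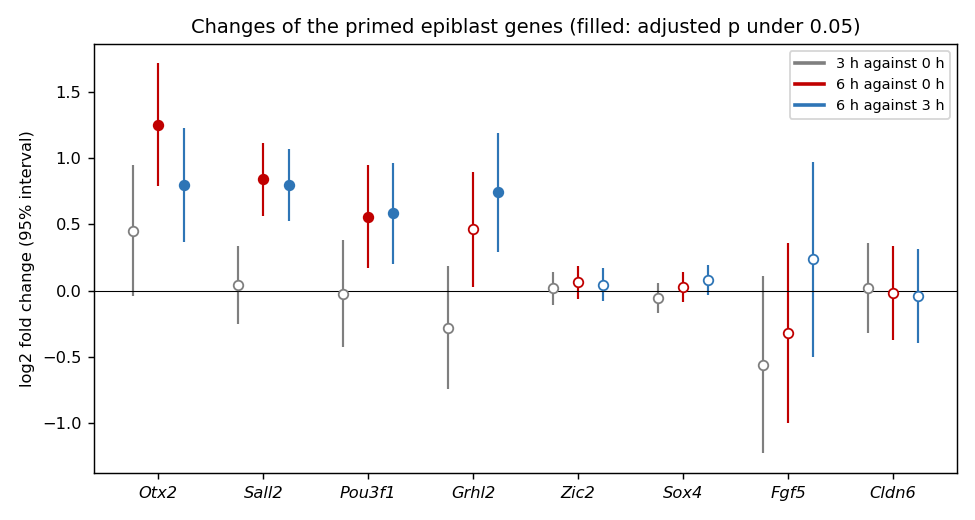
Log2 fold change of each of the 8 genes in the 3 comparisons, with its 95% confidence interval, filled where the adjusted p was under 0.05. The intervals of Otx2 and Sall2 at 6 h against 0 h run from 0.79 to 1.72 and from 0.56 to 1.12, while that of Fgf5 runs from -1.0 to 0.36.

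Otx2 (ENSMUSG00000021848, chr14:48657677-48673819, minus strand, GRCm38) encodes a homeodomain factor that drives the exit from the naive state and later patterns the anterior head. Its level was 3.16 and 4.03 CPM at 0 h, 4.73 and 5.18 CPM at 3 h, and 6.09 and 11 CPM at 6 h. The groups did not overlap in any comparison, and 1 of the 6 h libraries was far above the other. From raw counts of 101 and 205 at 6 h against 61 and 87 at 0 h, the log2 fold change was 1.26 ± 0.22 (SE, adjusted p = 0.000576, edgeR). Against 3 h it was 0.80 ± 0.20 (adjusted p = 0.0103). At 3 h against 0 h it was 0.45 ± 0.23 (adjusted p = 0.512), a difference that did not pass the test although the libraries were separated, and that turned to -0.25 (adjusted p = 0.820) with the mean of 30 feeder markers as a covariate. Of all genes tested, 20.5% also had both 3 h libraries above both 0 h libraries.

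The height of Otx2 rested in part on the second 6 h library. Without it the log2 fold change against 0 h was 0.75 (adjusted p = 0.0130), and without the other 6 h library it was 1.61. Against 3 h the call ended without the second 6 h library (log2 fold change 0.30, adjusted p = 0.301), without the first 3 h library (adjusted p = 0.0803) and without the second (adjusted p = 0.0518). It also ended under DESeq2 (adjusted p = 0.175) and with no filter on low counts (adjusted p = 0.124). The first 6 h library, with the lower Otx2, had the higher feeder sum of its group. With the mean of the feeder markers as a covariate, the log2 fold change was 1.17 at 6 h against 0 h and 1.42 at 6 h against 3 h.

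RefSeq lists several start sites for Otx2, and 2 of its 4 windows of 300 bases around the start held the pentamer ACGTG. Otx2 and Sall2 were chosen for display because they had the largest called changes among the 8. Of the Otx2 windows, only the 2 that held ACGTG are shown, with 1 window of Sall2. All lie on the minus strand of GRCm38.p6 and read 5′ to 3′, with ACGTG in capitals.
Otx2, chr14:48665060-48665359: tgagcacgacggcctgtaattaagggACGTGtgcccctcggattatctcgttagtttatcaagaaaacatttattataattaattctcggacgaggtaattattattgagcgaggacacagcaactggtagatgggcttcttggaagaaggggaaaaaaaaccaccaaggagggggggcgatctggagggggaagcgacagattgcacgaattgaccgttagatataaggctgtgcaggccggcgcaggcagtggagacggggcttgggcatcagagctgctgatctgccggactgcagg
Otx2, chr14:48662685-48662984: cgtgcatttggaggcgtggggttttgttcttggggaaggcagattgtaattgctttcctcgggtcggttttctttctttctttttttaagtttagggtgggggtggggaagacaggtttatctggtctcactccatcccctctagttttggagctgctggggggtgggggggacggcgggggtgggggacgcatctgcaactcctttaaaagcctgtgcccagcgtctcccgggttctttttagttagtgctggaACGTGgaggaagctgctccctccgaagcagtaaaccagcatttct
Sall2, chr14:52316274-52316573: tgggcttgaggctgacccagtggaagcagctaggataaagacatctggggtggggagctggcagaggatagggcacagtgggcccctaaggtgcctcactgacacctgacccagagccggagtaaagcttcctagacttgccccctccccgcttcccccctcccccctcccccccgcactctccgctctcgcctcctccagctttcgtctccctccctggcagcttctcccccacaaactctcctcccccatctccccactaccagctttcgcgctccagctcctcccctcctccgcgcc
This pentamer was found in 19.6% of 32851 RefSeq promoter windows, a share of single windows, whereas Otx2 had 4 windows in which it could match. The Sall2 window did not hold it, and had a GC content of 65.0%, against a median of 52.7% over all windows. The other Sall2 window had a GC content of 30.3%. The E-box CACGTG, which contains that pentamer, was found in 7.15% of all windows and in none of these. The motif ATCAAAG, bound by TCF and LEF factors, was found in 3.73% of all windows and in none of these. The octamer ATGCAAAT, bound by POU factors, was found in 1.74% and in none of these. The element TGACGTCA, bound by CREB, which was found in 1.79% of all windows, matched once in the window of Cldn6. Every motif was searched on both strands.

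Sall2 (ENSMUSG00000049532, chr14:52311172-52328762, minus strand) encodes a spalt family zinc finger factor. Its level was 6.01 and 5.15 CPM at 0 h, 5.16 and 6.29 CPM at 3 h, and 9.65 and 10.3 CPM at 6 h. Both 6 h libraries were above the other 4, and the 3 h and 0 h libraries overlapped. The log2 fold change was 0.84 ± 0.13 against 0 h (adjusted p = 0.000228, edgeR) and 0.80 ± 0.13 against 3 h (adjusted p = 0.000397). At 3 h against 0 h it was 0.04. Sall2 was called in both comparisons at 6 h in each of the 6 fits without 1 library and under each of 11 other settings.

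Pou3f1 (ENSMUSG00000090125, chr4:124656807-124660655, plus strand) encodes a POU domain factor of the formative epiblast, also known as Oct6. Its level was 2.44 and 2.60 CPM at 0 h, 2.55 and 2.41 CPM at 3 h, and 3.50 and 3.92 CPM at 6 h. The 6 h libraries were again above the other 4. The log2 fold change was 0.56 ± 0.18 against 0 h (adjusted p = 0.0361, edgeR) and 0.58 ± 0.18 against 3 h (adjusted p = 0.0298). Raw counts were 58 and 73 at 6 h, and 47 and 56 at 0 h, and neither call held in every fit. The call against 0 h ended without either 0 h library (adjusted p = 0.133 and 0.0967), without either 6 h library (adjusted p = 0.0553 and 0.192), under DESeq2 (adjusted p = 0.249) and with no filter (adjusted p = 0.0618). Against 3 h it ended without any 1 of the 3 h and 6 h libraries (adjusted p from 0.0520 to 0.166), under DESeq2 (0.223), with no filter (0.0580) and with the feeder covariate (0.0707). In these fits its size stayed between 0.50 and 0.72 on the log2 scale.

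Grhl2 (ENSMUSG00000022286, chr15:37233036-37363569, plus strand) encodes a grainyhead-like factor that opens enhancers of epithelial genes. Its level was 2.28 and 2.64 CPM at 0 h, 1.66 and 2.41 CPM at 3 h, and 3.56 and 3.27 CPM at 6 h. Both 6 h libraries were the highest, and the 3 h libraries reached lower than those of 0 h. The log2 fold change was 0.74 ± 0.21 against 3 h (adjusted p = 0.0197, edgeR), and against 0 h it was 0.46 ± 0.21 (adjusted p = 0.120). The call against 3 h ended without the first 3 h library (adjusted p = 0.189), without the first 6 h library (0.0912), under DESeq2 (0.129), with no filter (0.0723) and with the feeder covariate (0.103). Its size was 0.51 without the first 3 h library and 0.69 to 0.75 in the other fits that lost the call.

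Of the 8 genes, Grhl2 alone had the 7mer AGCACTT in its longest annotated 3′ UTR, and it had 2. This 7mer pairs with the seed shared by the miR-290 and miR-302 families, which are abundant in pluripotent cells. The sites are given with 11 bases on each side, the 7mer in capitals.
Grhl2 site 1, chr15:37362331-37362337: tttgtctgcgaAGCACTTtgatgttttac
Grhl2 site 2, chr15:37362722-37362728: ccctgtgctatAGCACTTggggctagctg
They begin at bases 1480 and 1871 of a 3′ UTR of 2718 bases. Of 13515 genes with a 3′ UTR, 17.6% held at least 1 such 7mer and 3.29% held at least 2. The 3′ UTR of Grhl2 was at the 80.6th percentile in length, where the median was 1202 bases. A longer 3′ UTR has more room for a match, and these shares were not matched for length. The mature miRNAs, from RefSeq, share bases 2 to 8, shown in capitals.
mmu-miR-291a-3p: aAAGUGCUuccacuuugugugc
mmu-miR-294-3p: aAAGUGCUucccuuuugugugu
mmu-miR-295-3p: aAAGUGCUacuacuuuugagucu
mmu-miR-302b-3p: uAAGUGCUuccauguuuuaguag
mmu-miR-302d-3p: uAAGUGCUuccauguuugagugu
The first 3 lie on chromosome 7 and the other 2 on chromosome 3. Their levels were not measured in these polyA libraries, and a match in the letters is not a measured site.

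Zic2 and Sox4 were the most abundant of the 8, and neither was called. Zic2 (ENSMUSG00000061524, chr14:122475435-122479852, plus strand), a zinc finger factor that binds enhancers in ES cells and the epiblast, had 65.9 and 67.1 CPM at 0 h, 68.5 and 66.1 CPM at 3 h, and 63.9 and 74.8 CPM at 6 h. The 6 h libraries lay on either side of the rest. Its log2 fold change at 6 h against 0 h was 0.06 ± 0.06 (95% confidence interval -0.07 to 0.19, adjusted p = 0.503, edgeR). Without the first 6 h library it was 0.18 and passed the test (adjusted p = 0.0380). At 6 h against 3 h it was 0.04 (adjusted p = 0.643), and with the feeder covariate it was 0.19 and passed the test (adjusted p = 0.0379). Sox4 (ENSMUSG00000076431, chr13:28948919-28953713, minus strand), an SRY-related factor of progenitor cells, had 51.5 and 51.7 CPM at 0 h, 49.9 and 49.5 CPM at 3 h, and 54.9 and 50.2 CPM at 6 h. The log2 fold change at 6 h against 0 h was 0.03 ± 0.05 (95% confidence interval -0.09 to 0.14, adjusted p = 0.778). At 3 h both libraries were below both 0 h libraries, by a log2 fold change of -0.05 that did not pass the test (adjusted p = 0.765). Opposite-strand Gm26735 overlaps 54.6% of the exon bases of Sox4, and the strand setting of the counting is not given in the sources used here. No counted gene was matched to the symbol Gm26735, so whether it was in the annotation used for counting is not known.

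Fgf5 (ENSMUSG00000029337, chr5:98254184-98277030, plus strand) encodes a secreted fibroblast growth factor and is a common marker of the primed epiblast. It was the lowest of the 8 in CPM, with 1.14 and 1.21 CPM at 0 h, 0.710 and 0.879 CPM at 3 h, and 1.21 and 0.698 CPM at 6 h. These stood on 13 to 26 raw counts per library. The 6 h libraries spanned the whole range of the others. The log2 fold change at 6 h against 0 h was -0.32 ± 0.32 (adjusted p = 0.515, edgeR), with a 95% confidence interval from -1.0 to 0.36. Both 3 h libraries were below both 0 h libraries (-0.56 ± 0.32, adjusted p = 0.565), and 42.3% of all genes tested had 3 h and 0 h libraries that did not overlap in either direction. At 6 h against 3 h it was 0.24 ± 0.35 (adjusted p = 0.675), with an interval from -0.50 to 0.97.

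Cldn6 (ENSMUSG00000023906, chr17:23679249-23682446, plus strand) encodes a claudin of tight junctions in embryonic epithelia. It had 4.25 and 4.54 CPM at 0 h, 5.06 and 3.89 CPM at 3 h, and 4.10 and 4.56 CPM at 6 h. All 3 groups overlapped. Its log2 fold change at 6 h against 0 h was -0.02 ± 0.17 (95% confidence interval -0.38 to 0.34, adjusted p = 0.952, edgeR), and its sign turned with 2 other scalings of the libraries (0.01 and 0.02).

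**Figure D3:**
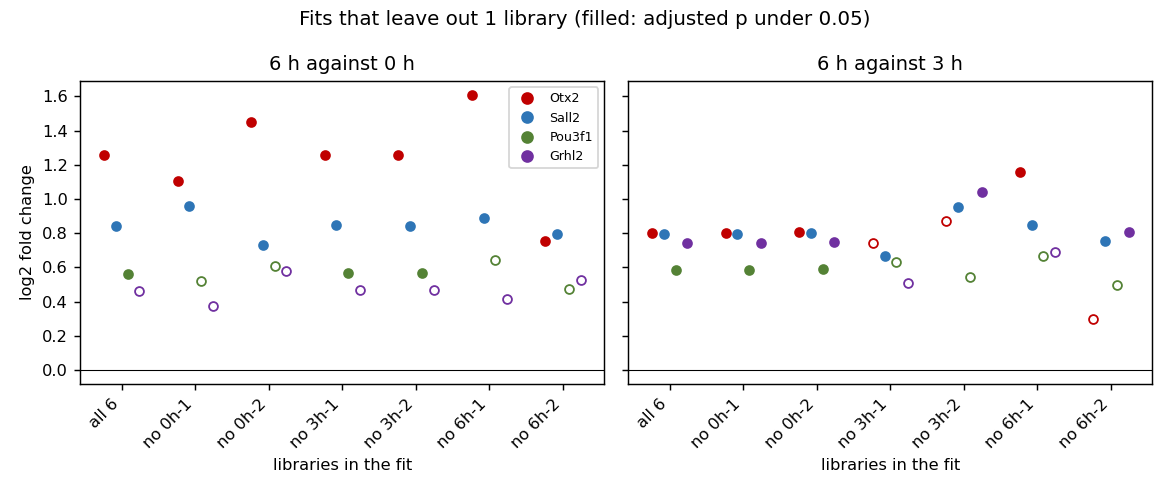
Log2 fold change of Otx2, Sall2, Pou3f1 and Grhl2 at 6 h against 0 h and at 6 h against 3 h, filled where the adjusted p was under 0.05, with all 6 libraries and without each library in turn. Otx2 moves between 0.75 and 1.61 at 6 h against 0 h, and Sall2 between 0.73 and 0.96.

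Levels of different genes were compared in TPM, a share of transcripts that allows for exon length. Exon length took in every annotated exon base of a gene over its transcripts (4221 bases for Otx2, 8613 for Grhl2). A gene read mainly from a shorter transcript would have a higher TPM, so the order depends on this length. At 0 h Zic2 was the highest (mean 82.9 TPM), followed by Sox4 (38.6), Cldn6 (9.17), Sall2 (3.69), Otx2 (3.06), Pou3f1 (2.35), Fgf5 (1.68) and Grhl2 (1.03). The ranges of Sall2 and Otx2 overlapped at 0 h. By 3 h the means were 82.4 TPM for Zic2, 36.5 for Sox4, 9.17 for Cldn6, 4.14 for Otx2, 3.71 for Sall2, 2.27 for Pou3f1, 1.12 for Fgf5 and 0.830 for Grhl2, and Otx2 and Sall2 again overlapped. At 6 h the means were 86.9 TPM for Zic2, 39.5 for Sox4, 9.08 for Cldn6, 7.33 for Otx2, 6.60 for Sall2, 3.48 for Pou3f1, 1.43 for Grhl2 and 1.37 for Fgf5. Otx2, at 5.13 and 9.53 TPM, then overlapped both Cldn6 and Sall2, and Grhl2 overlapped Fgf5. The genes called at 6 h all had a mean under 4 TPM at 0 h, as did Fgf5, which was not called, and the 3 genes over 9 TPM were not called.

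Across the 6 libraries the log2 CPM of Pou3f1 followed that of Sall2 most closely (Pearson r = 0.915), then that of Otx2 (r = 0.865), and Sall2 followed Grhl2 (r = 0.829). These are descriptions over libraries that share their times. Among 11714 genes, the pattern nearest that of Otx2 by Euclidean distance between centred log2 CPM was that of Platr11 (0.471), then Cdc42ep2 (0.474) and Tmc7 (0.553). Nearest to Pou3f1 were Trim7 (0.0802), Igsf3 (0.0896) and Grb7 (0.0921). For Sall2 they were Tmem151b (0.164), Anks6 (0.172) and Sema5b (0.185), and for Grhl2 they were Srl (0.248), Ttc30b (0.251) and Ctdspl (0.257). The distances from Otx2 were the largest of these 4 sets.

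In coding GC content, Pou3f1 (72.9%), Sox4 (66.8%) and Zic2 (66.2%) stood at the 99.8th, 98.4th and 98.1st percentiles of 13515 genes, whose median was 53.3%. Otx2 had 52.6%, Grhl2 51.1% and Sall2 57.6%, so the 4 genes that were called did not share a coding base composition. The AU-rich pentamer ATTTA, a letter match found in the longest 3′ UTR of 70.7% of genes, occurred 6 times in Pou3f1, 4 times in Fgf5 and Sox4, 3 times in Sall2, 2 times in Otx2 and once in Grhl2. It was not found in Zic2 or Cldn6.

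Of 18 other genes of the formative and primed states that were tested, 4 rose and 3 fell at 6 h against 0 h, with a median log2 fold change of 0.03, where 10.0% of all genes were called higher and 12.3% lower. Lef1, a nuclear partner of beta-catenin, rose by 0.62 (adjusted p = 1.06e-06, edgeR), and Dnmt3a, a de novo DNA methyltransferase, rose by 0.24 (adjusted p = 0.00213). Rbpj, the DNA-binding partner of Notch, changed by -0.42 (adjusted p = 2.24e-06), and Foxd3, a forkhead factor of the epiblast, by -0.48 (adjusted p = 0.000339). Against 3 h, 3 of 18 rose and 2 fell, with a median of -0.0046, where 9.89% of all genes were called higher and 11.8% lower.

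Of 16 tested members of the same gene families as the 8, 2 rose and 3 fell at 6 h against 0 h, with a median of 0.04, where 10.0% of all genes were called higher and 12.3% lower. Grhl3, another grainyhead-like factor, rose by 0.47 (adjusted p = 0.00594, edgeR) and Zic5 by 0.24 (adjusted p = 0.0072). Sall4, a spalt factor of pluripotent cells, changed by -0.24 (adjusted p = 9.99e-05) while Sall2 rose. Fgf4, the growth factor that ES cells secrete to signal through ERK, changed by -0.15 (adjusted p = 0.0127), beside the uncalled -0.32 of Fgf5.

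Among 22 epithelial and junction genes, the group to which Grhl2 and Cldn6 are linked, 3 rose and 2 fell at 6 h against 0 h (median -0.03), a share called close to the 22.3% of all genes tested. Cdh1, which encodes E-cadherin, changed by -0.26 (adjusted p = 0.000154, edgeR) and Crb3, a polarity protein, by -0.51 (adjusted p = 0.00862). Tjp1, a scaffold of tight junctions, rose by 0.27 (adjusted p = 0.000187). Against 3 h, the comparison in which Grhl2 was called, 2 of the 22 rose and 5 fell (median -0.08). Of all genes tested, 9.89% were called higher there and 11.8% lower.

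Most of the naive pluripotency genes were called lower. Of 15 tested, 9 fell and 3 rose at 6 h against 0 h, with a median log2 fold change of -0.29, and 12.3% of all genes tested were called lower. Nr0b1, a nuclear receptor of ES cells, changed by -0.95 (adjusted p = 4.55e-10, edgeR), Esrrb, an orphan nuclear receptor of the naive network, by -0.42 (adjusted p = 2.86e-07) and Tfcp2l1, a grainyhead-related factor, by -0.30 (adjusted p = 1.06e-06). Prdm14, a repressor that guards the naive state, was among the 3 that rose, at 1.16 (adjusted p = 3.13e-08). The others were Klf4, at 0.17 (adjusted p = 0.00342), and Nanog, at 0.13 (adjusted p = 0.0061). At 3 h against 0 h, Klf4 alone of the 15 was called, at 0.28 (adjusted p = 0.00342), beside 0.0508% of all genes called higher. Against 3 h, 11 of the 15 fell and 1 rose (median -0.23), beside 11.8% of all genes tested called lower and 9.89% higher.

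Markers of other cell types were compared beside the shares over all genes tested. At 6 h against 0 h, 22.3% of all genes were called (10.0% higher, 12.3% lower). At 6 h against 3 h, 21.7% were called (9.89% higher, 11.8% lower). Of 30 feeder markers, 10 rose at 6 h against 3 h, with a median log2 fold change of 0.11, and 2 rose at 6 h against 0 h, with a median of -0.02. At 3 h against 0 h all 30 had a log2 fold change below 0, with a median of -0.14. Those with the smallest adjusted p against 3 h were Col6a3, Prrx1, Thy1 and Col6a1, at 0.21 to 0.28. With the feeder mean as a covariate, Sall2 (0.78) and Otx2 (1.42) were called at 6 h against 3 h, as was Zic2 (0.19). Pou3f1 (0.72) and Grhl2 (0.73) were not called in that fit, beside 0.58 and 0.74 without the covariate. Both 3 h libraries had the lowest feeder means (8.30 and 8.31 in log2 CPM). The covariate and the 3 h group therefore cannot be fully told apart. Of 6 neuroectoderm markers tested, Sox1 alone was called at 6 h against 0 h, with 5.00 and 4.03 CPM at 6 h, and 3.11 and 2.97 CPM at 0 h (log2 fold change 0.56, adjusted p = 0.0313). Of 9 primitive endoderm markers tested at 6 h against 0 h, 2 fell: Sox7 fell by 1.12 (adjusted p = 0.000277) and Lama1 fell by 0.22 (adjusted p = 0.0357). Against 3 h the same markers were lower, at -0.82 for Sox7 and -0.33 for Lama1, and Gata4 rose by 0.75 (adjusted p = 0.0458). Of 6 trophectoderm markers tested at 6 h against 0 h, 2 rose, Eomes by 0.35 (adjusted p = 0.0016) and Tfap2c by 0.26 (adjusted p = 0.0388). Against 3 h Eomes rose by 0.35 and Krt7 fell by 0.99 (adjusted p = 0.0194). Of the 10 ES cell markers, 3 rose and 5 fell at 6 h against 0 h, with a median of -0.11. Their part in the changes of the 8 genes was not tested.

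**Figure D4:**
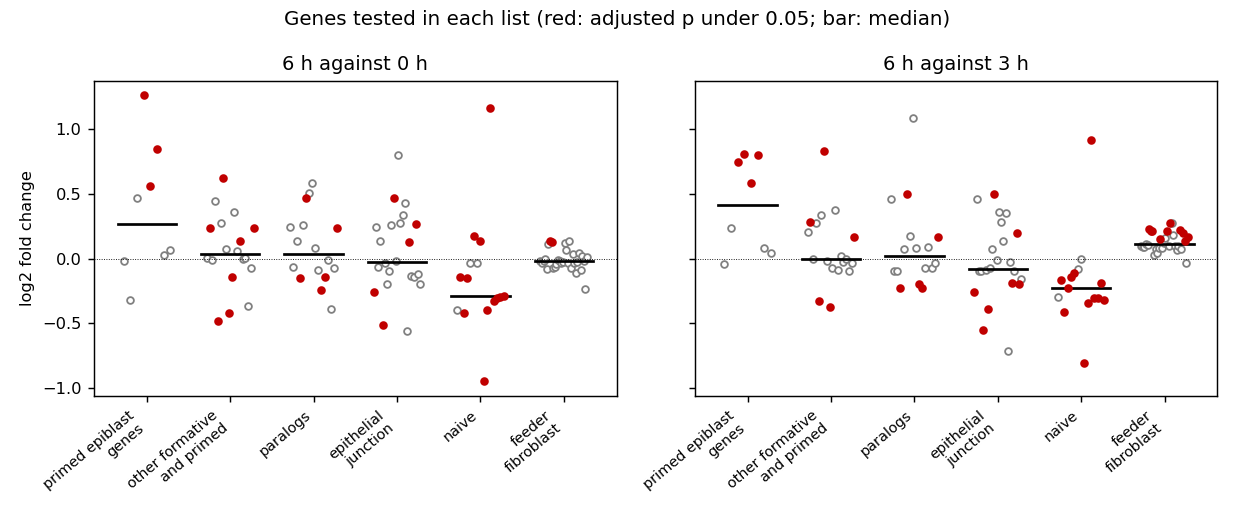
Log2 fold changes at 6 h against 0 h and at 6 h against 3 h for the 8 genes and for the genes tested among other formative and primed genes, paralogs, epithelial and junction genes, naive genes and feeder markers, a point per gene, red where called, with a bar at the median. The 8 genes have a 6 h against 0 h median of 0.26, the other formative and primed genes 0.03 and the naive genes -0.29.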

How the data were processed

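Gene counts of polyA RNA were measured in 6 libraries. The deposited table holds raw counts, whole reads per Ensembl gene, made by the authors with fastp 0.22.0, HISAT2 2.2.1 and featureCounts 2.0.3 on GRCm38 (mm10), per the submitters' processing notes. The sources used here do not give the strand setting, the annotation release or the handling of multi-mapped reads. Symbols, positions, exon lengths and UTRs came from GENCODE M21 (GRCm38), which gave 55227 IDs a symbol, and promoters and miRNAs from RefSeq GRCm38.p6. RefSeq windows were matched for 5 of the 8 genes.

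Genes were kept by filterByExpr (minimum count 10), which left 99.9% of the counts. Libraries were scaled by TMM. The quasi-likelihood test of edgeR 4.0.16 (R 4.3.3) was run on all 6 libraries with 3 group means, 3 residual and 13.7 prior degrees of freedom, two-sided, with Benjamini-Hochberg adjustment over all genes tested. CPM values are TMM-scaled. The script was tested on simulated data. Alternatives were other scalings and filters, DESeq2 1.42.0, limma 3.58.1 voom, edgeR's legacy test (added after the data were seen), a replicate block, a feeder covariate, 4-library fits and each library left out. The replicates of each group differed beyond sampling noise.

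The 8 genes and the gene lists were chosen with earlier results of these data known, so no list was tested. Up to 4 called genes per list and comparison with the smallest adjusted p could be named. Klf4 and Nanog at 6 h against 0 h were named beyond this, as the other naive genes called higher. For each called member the 3 genes with the nearest pattern over 6 libraries were named, among genes whose log2 CPM averaged 1 or more, without predicted genes.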

Additional observations from a re-analysis of the deposited data

Results flagged for a closer look

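The change at 6 h differed from the change at 3 h, both against the same 0 h libraries, for 4 of the 8 genes. These are the calls at 6 h against 3 h, where 21.7% of all genes tested were called and 9.89% called higher. The difference, which is the fold change at 6 h against 3 h in edgeR's quasi-likelihood fit, was 0.80 on the log2 scale for Otx2 (adjusted p = 0.0103) and 0.80 for Sall2 (adjusted p = 0.000397). It was 0.74 for Grhl2 (adjusted p = 0.0197) and 0.58 for Pou3f1 (adjusted p = 0.0298). Of these 4, only Sall2 kept the call under DESeq2 and with no filter on low counts. With 2 libraries a group, no library could be called an outlier within its group.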

How the results depend on the processing

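The number of genes called at 6 h against 0 h, 3515, fell to 2029 with no filter and to 1701 under DESeq2, and ran from 2488 to 3092 without 1 library. The 3414 at 6 h against 3 h became 1725 with no filter, 1449 under DESeq2 and 2090 with the feeder covariate, and ran from 1514 to 3706 without 1 library. At 3 h against 0 h, 22 became 0 with no filter (edgeR, 1839 at an unadjusted p under 0.05), 12 under DESeq2, 242 with the replicate block, 36 with the feeder covariate and 74 in a fit of 4 libraries, and ran from 4 to 249 without 1 library. Upper-quartile factors and library totals without factors turned the split of calls at 6 h against 0 h to 2051 higher and 1511 lower, and 2128 and 1457, beside 1575 and 1940. At 6 h against 3 h they gave 2053 and 1297, and 2056 and 1296, beside 1558 and 1856. Of the 8 genes, the number called at 6 h against 3 h was 1 with no filter, 1 under DESeq2 and 1 to 4 without 1 library, and at 6 h against 0 h it was 2 to 3 without 1 library. The sign turned only in uncalled differences: with the feeder covariate, Otx2 -0.25, Zic2 -0.15, Sox4 0.027 and Cldn6 -0.13 at 3 h against 0 h, and Fgf5 -0.17 and Cldn6 0.10 at 6 h against 3 h, where Zic2 was called at 0.19 (adjusted p = 0.0379), and Cldn6 0.011 and 0.016 at 6 h against 0 h with the other scalings. Without 1 library, the log2 fold change at 3 h against 0 h ran from -0.067 to 0.021 for Pou3f1, -0.11 to 0.18 for Sall2, -0.0094 to 0.045 for Zic2 and -0.18 to 0.20 for Cldn6. For 6 h against 0 h it ran from -0.74 to 0.041 for Fgf5, -0.056 to 0.18 for Zic2, -0.033 to 0.093 for Sox4 and -0.10 to 0.058 for Cldn6. For 6 h against 3 h it ran from -0.18 to 0.60 for Fgf5, -0.073 to 0.16 for Zic2 and -0.22 to 0.17 for Cldn6. The cause of these shifts was not tested. Over all genes tested, the difference between the 2 libraries of a group hardly correlated between groups (0.04, 0.04 and -0.02). This cannot exclude a pairing by number, since counting noise lowers such correlations. The first library had the higher feeder sum in every group. By the mean log2 CPM used as the covariate, it was slightly lower at 3 h (8.301, against 8.308 for the second library). The replicate block raised the calls at 6 h against 0 h from 3515 to 4227, and changed no call among the 8 genes. Counts of 13 to 26 for Fgf5 and 35 to 61 for Grhl2 limit what could be seen for these genes.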
